A study of Mus musculus with 8 samples.

Results

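The 5 genes described here are the measured genes of the interval from Hoxb9 to Hoxb13 at the 5′ end of the Hoxb cluster of mouse chromosome 11. In RefSeq order they are Hoxb13, Gm11538, Gm53, Mir196a-1 and Hoxb9. They were taken by symbol from the platform annotation, and they are 5 of the 22180 genes measured. Probe sets were selected on the highest mean over the 8 arrays, but each of the 5 genes had a single probe set, so this value decided nothing. The interval was chosen with earlier results of these data known, so the changes below describe it and are not independent evidence that it differs from other genes.

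Expression was read from whole lungs taken at embryonic day 14.5, on 1 array for each of 8 mouse embryos. The 4 mutants were Shh-cre:Ezh2-flox/flox, which carry the Shh-cre driver and 2 floxed copies of Ezh2. The 4 controls were Shh-cre, so both groups carry the driver, and both were on a mixed C57BL/6 x 129S6 background. The driver, known as a knock-in of Cre at the Shh gene, is active in the lung epithelium, and whole lung also holds mesenchyme, vessels and other cells in which it is not meant to delete Ezh2. In such a sample, fewer cells with a transcript cannot be told apart from less transcript per cell. Littermates came in pairs, 2 litters of mutants and 2 of controls, and the labels place no litter with both genotypes.

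Hox genes encode transcription factors that give cells their position along the body axis. They sit in clusters in which genes at the 3′ end are used early and anteriorly and genes at the 5′ end late and posteriorly. Ezh2 encodes the enzyme of Polycomb repressive complex 2, which methylates histone H3 at lysine 27 and helps to keep Hox genes silent outside their own domains. Hoxb9 is a member of the posterior, Abd-B-like Hox genes, and Hoxb13, the last gene of the cluster, is known for its role in the tail, hindgut derivatives and prostate. Mir196a-1 encodes a microRNA that is known to repress Hox messenger RNAs, Hoxb8 among them. RefSeq classes Gm53 and Gm11538 as long noncoding RNAs, and no role is given for them here.

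The microRNA sequences are shown because 3 loci in different Hox clusters make products with the same seed, and the probe set that rose belongs to only 1 of them. Letters are from RefSeq (GRCm38.p6), and capitals mark the seed, bases 2 to 8 of the mature strand.
mmu-miR-196a-5p: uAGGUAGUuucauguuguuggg
mmu-miR-196b-5p: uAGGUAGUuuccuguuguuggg
mmu-miR-196a-1-3p: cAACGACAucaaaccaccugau
The first is made from Mir196a-1, at chr11:96265187-96265208 on the plus strand, and an identical strand is made from Mir196a-2 in the Hoxc cluster at chr15:102973365-102973386. The second is made from Mir196b in the Hoxa cluster and differs from the first by 1 base of 22, A12C, counted from the 5′ end. No other mature mouse microRNA among 1679 names in the RefSeq table has this seed. In the precursor hairpin of Mir196a-1, of 102 bases at chr11:96265164-96265265, capitals mark the 5p strand.
Mir196a-1 hairpin: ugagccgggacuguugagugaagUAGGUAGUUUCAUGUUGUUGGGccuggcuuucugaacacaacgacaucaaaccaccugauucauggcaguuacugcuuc

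All 5 genes rose in mutant lungs, each with an adjusted p under 0.05 in the linear model of limma, with p-values adjusted by the Benjamini-Hochberg method over the whole table. Over all genes 0.852% passed, 0.604% as higher and 0.248% as lower in mutants. In all 5 the lowest mutant lay above the highest control, which held for 4.48% of all genes, while all mutants lay below all controls for 3.6%. The interval was chosen with these changes in view, so nothing is read from these counts. The log2 changes, mutant minus control, were greatest in the middle of the interval, at Gm53 and Mir196a-1, and smallest at Hoxb13. The arrays give log2 expression after RMA, in which levels of different probe sets cannot be set against each other and changes of dim genes are drawn towards 0.

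**Figure D1:**
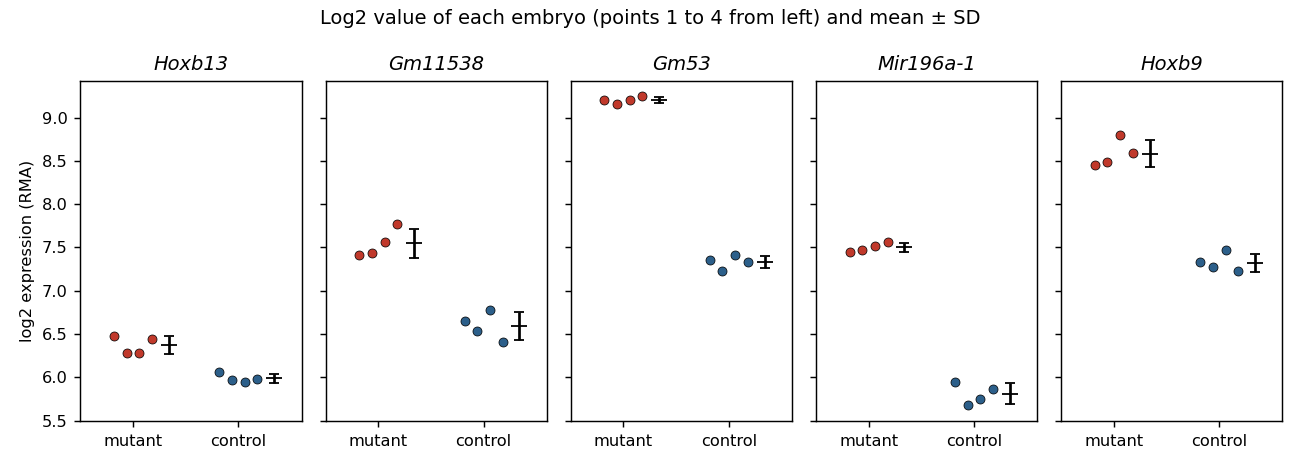
Log2 expression (vertical axis) of the 5 genes in each of the 4 mutant and 4 control embryos (points), with the mean and SD of each genotype beside them. The genotypes do not overlap for any of the 5 genes, and the gap is widest for Gm53 and narrowest for Hoxb13.

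Of the 2 coding genes, Hoxb9 had log2 values of 8.45, 8.48, 8.80 and 8.59 in mutants 1 to 4, against 7.33, 7.27, 7.47 and 7.23 in controls 1 to 4. Mutant 3 was the highest mutant and control 3 the highest control, and the lowest mutant was 0.99 above the highest control. The means were 8.58 ± 0.16 in mutants and 7.32 ± 0.10 in controls (SD, n = 4 each). The log2 change was 1.26 ± 0.09 (SE), a 2.39-fold rise (limma, adjusted p = 4.48e-05).

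Hoxb13 had log2 values of 6.48, 6.28, 6.28 and 6.44 in mutants 1 to 4, against 6.06, 5.97, 5.94 and 5.98 in controls 1 to 4. Mutants 1 and 4 were the higher pair, and the lowest mutant was 0.23 above the highest control, a gap about as wide as the range of the mutants, 0.20. The log2 change was 0.39 ± 0.07 (SE), or 1.31-fold (limma, adjusted p = 0.0293). This call was lost in 11 of 23 alternatives, among them the fit on litter means (adjusted p 0.0983 by limma) and 5 of the 8 fits without 1 embryo. The embryos whose removal ended it were controls 2, 3 and 4 and mutants 1 and 4, with adjusted p of 0.0928, 0.0741, 0.0752, 0.0914 and 0.093 by limma in the same order. The direction held in every alternative in which Hoxb13 was tested.

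Mir196a-1 had log2 values of 7.45, 7.47, 7.52 and 7.56 in mutants 1 to 4, against 5.95, 5.67, 5.75 and 5.86 in controls 1 to 4. The mutants lay within 0.11 of each other and the controls within 0.27, and a gap of 1.503 separated the groups. The log2 change was 1.69 ± 0.07 (SE), a 3.23-fold rise (limma, adjusted p = 9.25e-07). Labelled RNA was primed from poly(A), which mature microRNAs lack, and in RefSeq the locus lies inside the noncoding gene Gm51876, which was not tested. The value is therefore not a level of mature miR-196a, and which longer transcript over the locus gave the signal cannot be told.

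The probe set of Mir196a-2, which makes the same mature 5p strand, had log2 values of 4.67, 4.68, 4.56 and 4.71 in mutants 1 to 4, against 4.72, 4.97, 4.70 and 4.62 in controls 1 to 4. The groups overlapped. Its log2 change was −0.10 ± 0.08 (SE), which did not pass (limma, adjusted p = 0.782). Mir196b was not tested here.

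Gm53, the nearest measured gene to Mir196a-1 on the side of Hoxb13, had log2 values of 9.20, 9.15, 9.20 and 9.24 in mutants 1 to 4, against 7.35, 7.23, 7.41 and 7.34 in controls 1 to 4. Its mutants lay within 0.09 of each other, the narrowest range of the 5 genes. The means were 9.20 ± 0.04 in mutants and 7.33 ± 0.07 in controls (SD, n = 4 each). The log2 change was 1.87 ± 0.06 (SE), a 3.65-fold rise (limma, adjusted p = 1.35e-07).

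Gm11538, the measured gene nearest to Hoxb13 within the interval, had log2 values of 7.41, 7.44, 7.56 and 7.77 in mutants 1 to 4, against 6.65, 6.54, 6.78 and 6.41 in controls 1 to 4. Mutant 4 was highest and control 4 lowest, and the lowest mutant was 0.63 above the highest control. The log2 change was 0.95 ± 0.11 (SE), or 1.93-fold (limma, adjusted p = 0.00135). RefSeq places 8 genes in the interval. The 3 that were not tested are the noncoding genes Gm30134 and Gm51876 and the pseudogene Gm11539.

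Ranked by log2 change among the 22180 genes, Gm53 stood at rank 5, Mir196a-1 at 6, Hoxb9 at 14, Gm11538 at 30 and Hoxb13 at 206. The table has no detection calls, so the values in controls do not show whether a transcript was absent in controls.

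**Figure D2:**
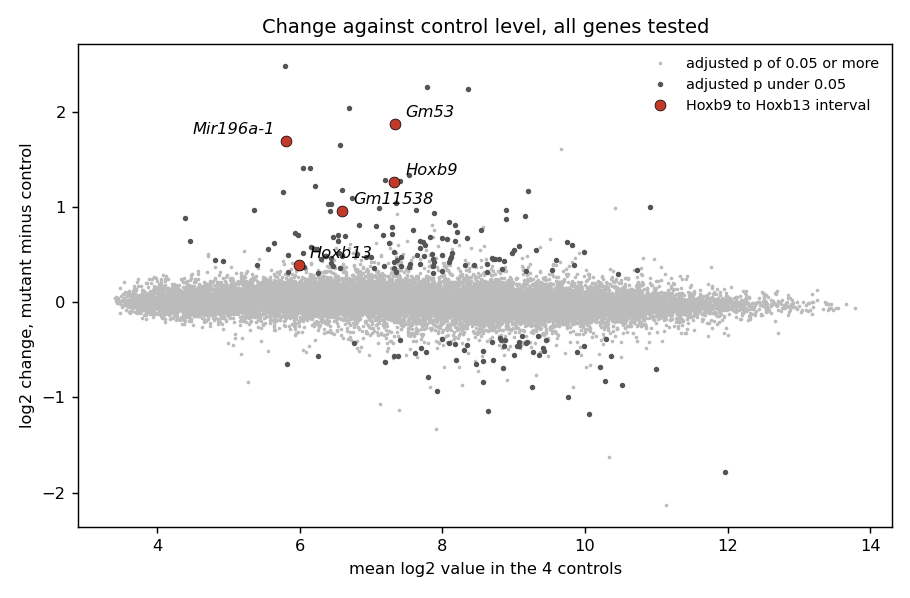
Log2 change (vertical axis, mutant minus control) against the mean log2 value in the 4 controls (horizontal axis) for all 22180 genes, with the 5 genes of the interval in red and other genes past an adjusted p of 0.05 in dark grey. Positions along the horizontal axis belong to different probe sets and are not compared. Gm53 and Mir196a-1 lie near the top of the plot and Hoxb13 at the upper edge of the genes that did not pass.

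Neighbours in the order of change were compared by the difference between their log2 values in each embryo. The change of Gm53 exceeded that of Mir196a-1 by 0.18 ± 0.06 (SE). Mir196a-1 exceeded Hoxb9 by 0.43 ± 0.11, Hoxb9 exceeded Gm11538 by 0.31 ± 0.09 and Gm11538 exceeded Hoxb13 by 0.57 ± 0.12 on the log2 scale. Of the 10 pairs among the 5 genes, the embryo differences of mutants and controls overlapped only for Hoxb9 and Gm11538. Their SEs come from the spread of the embryos within each genotype, without the litter block or the limma fit. These differences are descriptions of genes chosen for their changes and carry no test. The genes were ordered by change first, so each difference is positive by construction. Changes of dim genes are drawn towards 0, and the part of this in the order was not tested.

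Within a genotype the genes did not share a single high or low embryo. Among mutants, mutant 1 was the highest for Hoxb13, 0.11 above the mutant mean, and the lowest for Gm11538, Mir196a-1 and Hoxb9, by −0.13, −0.05 and −0.13. Mutant 4 was the highest for Gm11538, Gm53 and Mir196a-1, and mutant 3 for Hoxb9. Among controls, control 3 was the highest for Gm11538, Gm53 and Hoxb9, and control 1 for Hoxb13 and Mir196a-1.

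**Figure D3:**
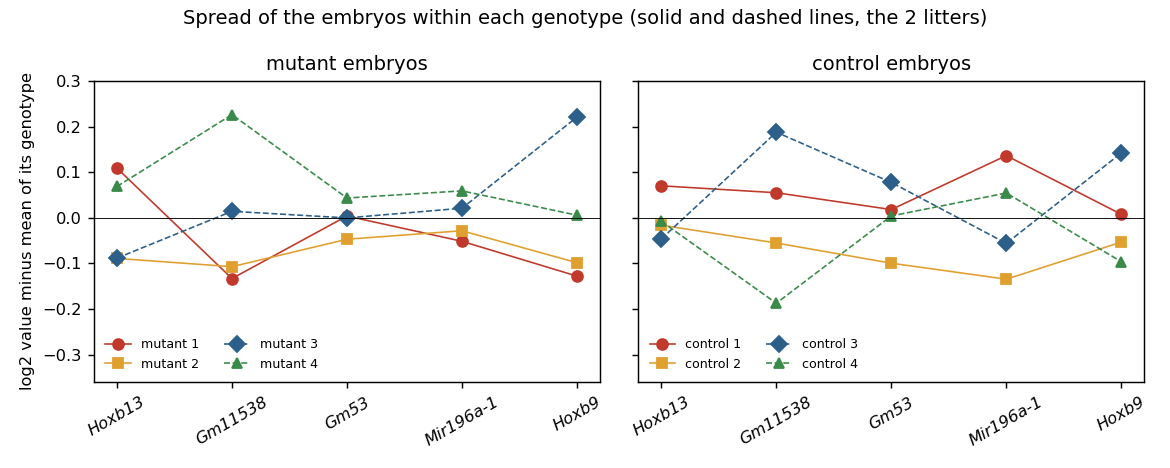
Log2 value of each embryo minus the mean of its genotype (vertical axis) for the 5 genes, with mutants on the left and controls on the right. Solid lines are embryos of the first litter and dashed lines of the second, and no embryo is at the top or bottom for all 5 genes.

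By litter, Hoxb9 averaged 8.47 and 8.70 in the 2 mutant litters, against 7.30 and 7.35 in the 2 control litters. Gm11538 averaged 7.43 and 7.67 in the mutant litters, against 6.59 in each control litter. The 2 mutant litters differed by less for Mir196a-1, at 7.46 and 7.54, against 5.81 in each control litter, and for Gm53, at 9.18 and 9.22, against 7.29 and 7.37. Hoxb13 averaged 6.38 and 6.36 in the mutant litters, against 6.02 and 5.96 in the control litters. Since no litter held both genotypes, a litter effect can be averaged over but not removed.

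The flanking genes on the chromosome were read in the same fit. On the far side of Hoxb13, 0 of the 10 nearest measured genes passed by limma and 2 had an unadjusted p under 0.05, with a median log2 change of −0.0062. Ttll6, a tubulin ligase gene and the nearest measured gene there, had a log2 change of 0.22 ± 0.09 (SE), Calcoco2, an autophagy receptor gene, 0.03 ± 0.07 and Atp5g1, a subunit gene of ATP synthase, −0.01 ± 0.12. Beyond Hoxb1, 0 of the 10 nearest measured genes passed by limma and 1 had an unadjusted p under 0.05, with a median of 0.0078. There Gm11529 had a log2 change of −0.03, Skap1, an adaptor gene of T cells, 0.22 and Snx11, a sorting nexin gene, 0.05. The median over all genes was 0.0068. Of all 22180 genes, 2189 had an unadjusted p under 0.05, to be set beside each such count here and below.

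Of the 8 genes from Hoxb8 to Hoxb1, 2 rose, 0 fell and the other 6 missed the threshold, with a median log2 change of 0.17. An unadjusted p under 0.05 was found for 4 of the 8. All mutants lay above all controls for 3 of the 8, against 4.48% of all genes. On the log2 scale Hoxb7 rose by 0.49 ± 0.06 (SE) and Hoxb6 by 0.38 ± 0.06, with adjusted p of 0.00269 and 0.0183 in limma. The call of Hoxb7 ended without mutant litter 1. The call of Hoxb6 held in 14 of 24 alternatives and ended without control 1 or without mutant 1, 2 or 4. Hoxb8, which adjoins Hoxb9, had log2 values of 6.18, 6.38, 6.30 and 6.02 in mutants 1 to 4, against 6.13, 6.12, 6.02 and 6.00 in controls 1 to 4. Its groups overlapped, and its log2 change of 0.15 ± 0.09 (SE) did not pass. In chromosome order, the change at Hoxb8 was thus smaller than at both Hoxb9 and Hoxb7. Hoxb8 is described for its place next to Hoxb9. The log2 changes of Hoxb1, Hoxb2 and Hoxb3, none of which passed, were 0.09, −0.04 and 0.20.

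**Figure D4:**
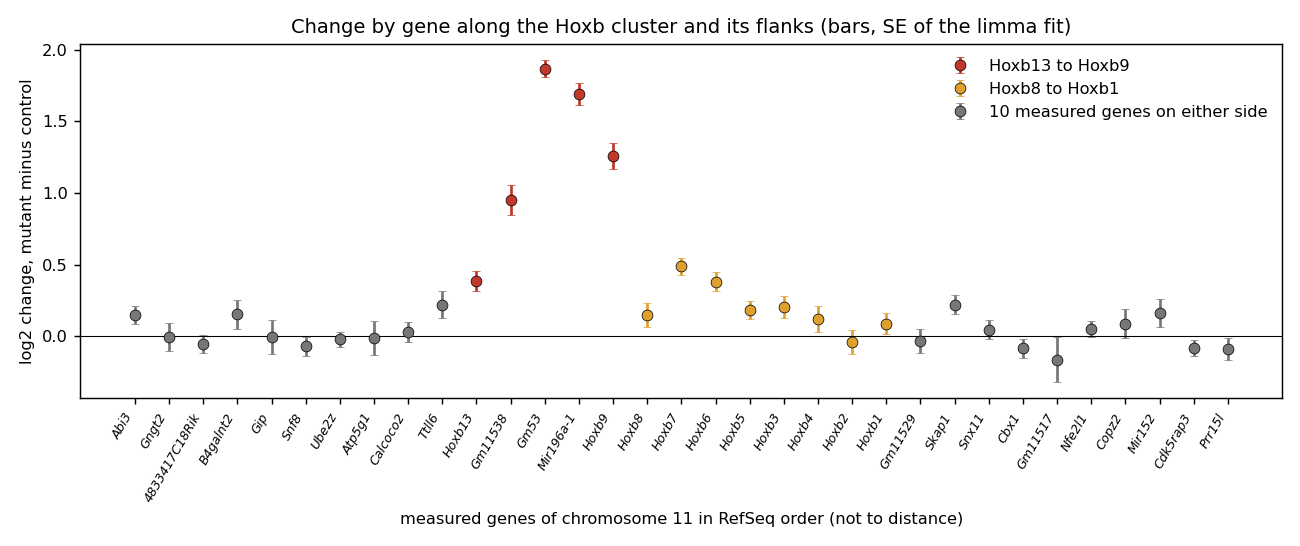
Log2 change (vertical axis, mutant minus control, bars SE of the limma fit) for the measured genes of chromosome 11 around the cluster, in RefSeq order and not to distance. The change climbs through Hoxb13 and Gm11538 to 1.87 at Gm53, and drops between Hoxb9 at 1.26 and Hoxb8 at 0.15, while the 20 flanking genes lie between −0.16 and 0.22.

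Hox genes of paralogue groups 9 to 13 in the other 3 clusters, which share descent with Hoxb9 and Hoxb13, were read for comparison. Among 13 of them on the array, 3 rose, 0 fell and 10 missed the threshold, with a median log2 change of 0.13. An unadjusted p under 0.05 was found for 5 of the 13. All mutants lay above all controls for 5 of the 13, against 4.48% of all genes. Hoxa10 rose by 0.58 ± 0.07 (SE), Hoxc9 by 0.56 ± 0.07 and Hoxc10 by 0.36 ± 0.07 on the log2 scale. The call of Hoxa10 ended without mutant litter 2, and that of Hoxc9 without control litter 2 or mutant litter 1. The call of Hoxc10 held in 9 of 23 alternatives, and of the embryos left out in turn only control 3 left it past the threshold. Hoxc9 is a direct paralogue of Hoxb9, as are Hoxa9 and Hoxd9, whose log2 changes of 0.35 ± 0.09 and 0.11 ± 0.08 missed the threshold. The paralogues of Hoxb13, which are Hoxa13, Hoxc13 and Hoxd13, had log2 changes of 0.07 ± 0.11, 0.10 ± 0.09 and 0.20 ± 0.08, and none passed. Hoxd9, Hoxc13 and Hoxd13 are named here after their values were seen.

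Among other noncoding genes of the Hox clusters none passed by limma, and 0 of the 6 measured had an unadjusted p under 0.05. The microRNA genes Mir10b and Mir615 had log2 changes of 0.02 and 0.14, and with Mir196a-2 these were the 3 measured of 5. The long noncoding RNA genes Hotair, Hoxaas3 and Hoxd3os1, the 3 measured of 11, had log2 changes of 0.12, −0.20 and 0.04. Of 21 measured genes of the Polycomb complexes, 0 passed by limma and 2 had an unadjusted p under 0.05, with a median log2 change of 0.02. Of all 22180 genes, 2189 had such an unadjusted p. Of 3 genes of enzymes that remove methyl groups from lysine 27, or are close relatives of these, 0 passed by limma and 0 had an unadjusted p under 0.05. Ezh2 had log2 values of 11.80, 11.80, 11.75 and 11.77 in mutants 1 to 4, against 11.84, 11.93, 11.83 and 11.89 in controls 1 to 4. All mutants thus lay below all controls, which held for 3.6% of all genes. The log2 change of Ezh2, −0.09 ± 0.05 (SE), did not pass. The probes of Ezh2 are not placed relative to the floxed exons here, and cells outside the reach of the driver add to the signal, so this is a weak check of the labels.

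**Figure D5:**
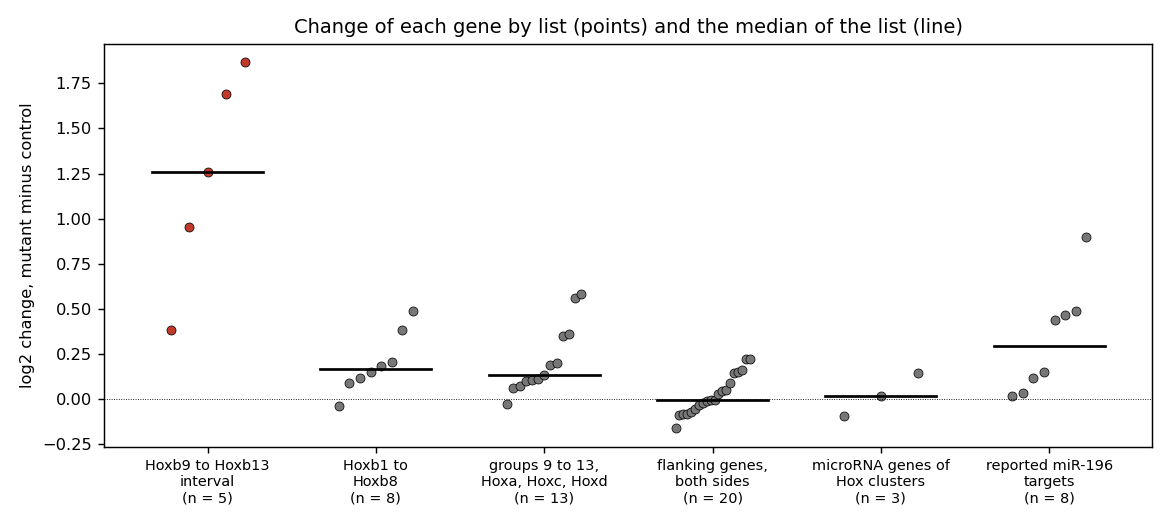
Log2 change of each gene (points, mutant minus control) and the median (line) for the interval and for 5 comparison lists. The interval runs from 0.39 to 1.87 with a median of 1.26, and the median of each comparison list is 0.29 or lower.

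Reported targets of miR-196 include Hox genes of several clusters. All 8 on the list were measured: 2 rose, 0 fell and the remaining 6 missed the threshold, with a median log2 change of 0.29. An unadjusted p under 0.05 was found for 4 of the 8. All mutants lay above all controls for 3 of the 8, against 4.48% of all genes. All 8 changes were positive, the lowest at 0.02, as were 11728 of all 22180. Most of the list are Hox genes, and changes were also positive for 7 of the 8 genes from Hoxb8 to Hoxb1. The same held for 12 of the 13 genes of groups 9 to 13. Hoxb7 was one of the 2 that rose. The other was Anxa1, the gene of annexin A1, with a log2 change of 0.90 and an SE of 0.12 (limma, adjusted p = 0.00534), a call that ended without mutant litter 2. For Hoxb8, Hoxc8 and Hoxd8, which missed it, the log2 change was 0.15, 0.44 and 0.46. Expression of messenger RNA in whole lung does not measure repression by a microRNA, and mature miR-196a was not measured.

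Of 19 measured cofactors and upstream regulators of Hox genes, 1 rose and 0 fell, with a median log2 change of 0.00084. Meis2, a cofactor that binds DNA together with Hox proteins, rose by 0.30 ± 0.06 (SE) on the log2 scale (limma, adjusted p = 0.0455). Its call held in 8 of 24 alternatives and in 0 of the 8 limma fits without 1 embryo. Pbx2, Pbx3 and Pbx4, of the other main cofactor family, stood at −0.11, −0.11 and 0.24 on the same scale and missed the threshold.

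Markers of tissues in which posterior Hox genes are normally active were read because a dissected lung can carry other tissue. Of 8 measured hindgut and tail markers 0 passed by limma and 1 had an unadjusted p under 0.05, and their mean log2 level per embryo was 6.37 to 6.58 in mutants and 6.41 to 6.53 in controls. The 1 was Hoxd13. Hoxd13 and Hoxa13 of this list were also read above as paralogues of Hoxb13, so the list is not separate from the posterior Hox genes. Cdx1, Cdx2 and Cdx4, which drive posterior Hox genes, had log2 changes of 0.0002, 0.04 and −0.04. Of 10 spinal cord markers, 10 skeletal muscle markers and 9 markers of axial skeleton, 0 passed by limma, and 1, 2 and 2 had an unadjusted p under 0.05. Their median log2 changes were 0.10, 0.03 and 0.04 in the same order. Their mean levels were 6.66 to 6.86, 6.47 to 6.70 and 6.96 to 7.13 in mutants, against 6.51 to 6.70, 6.46 to 6.61 and 6.98 to 7.09 in controls, in the same order. The spinal cord marker with an unadjusted p under 0.05 was Isl1. Its log2 change of 0.60 ± 0.13 (SE) missed the threshold (limma, adjusted p = 0.0661). All mutants lay above all controls for Isl1, which held for 4.48% of all genes.

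Some genes of 2 further marker lists rose, with a median log2 change of 0.08 over the kidney and urogenital list and 0.44 over the oesophagus list. Genes on such lists are not exclusive to the tissue named, and which cells gave their signal was not tested. Of 8 kidney and urogenital markers, 1 passed, Pax2, which rose by 0.70 on the log2 scale, and the mean level was 6.76 to 6.93 in mutants and 6.61 to 6.74 in controls. Of the other 7, Six2, Wt1, Lhx1, Hoxd11, Umod and Nphs1 overlapped between genotypes. Pax8 did not overlap, and its log2 change of 0.19 missed the threshold. All mutants lay above all controls for 2 of the 8, against 4.48% of all genes. Of 6 oesophagus markers, 3 rose, Krt4 with a log2 change of 1.22, Pax9 with 0.78 and Trp63 with 0.71, and the mean level was 7.18 to 7.34 in mutants and 6.68 to 6.84 in controls. The other markers of this list, Krt13, Krt14 and Sox21, were at −0.01, −0.06 and 0.17 and missed the threshold. All mutants lay above all controls for 3 of the 6, against 4.48% of all genes. To be set beside the calls of both lists, 0.604% of all genes passed as higher in mutants. Low values are not read as absence in this table. The part of these tissues in the changes of the interval was not tested.

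Among lung markers, Sftpc, the gene of surfactant protein C, was at a mean log2 value of 12.93 in mutants and 12.85 in controls, and Nkx2-1, the lung regulator, at 10.74 and 10.79. Of 10 epithelial markers, 1 fell, Foxa1, by 0.56 on the log2 scale, 0 rose and 9 did not pass. An unadjusted p under 0.05 was found for 4 of the 10, and in the same 4 all mutants lay below all controls. Over all 22180 genes, 2189 had such a p, and all mutants lay below all controls for 3.6%. Beside Foxa1 these were Epcam, Foxa2 and Shh, with log2 changes of −0.26, −0.20 and −0.28, of which Shh is the gene that carries the driver. Of 8 mesenchymal markers 0 passed by limma and 1 had an unadjusted p under 0.05. Xist was low, at 6.42 in mutant 3 and at 6.74 and 6.37 in controls 1 and 2, and at 12.61 or above in the other 5 embryos. Controls 1 and 2 made up control litter 1, so among controls Xist level and litter cannot be told apart. With the Xist level as a covariate, the log2 changes of the 5 genes were 0.38 for Hoxb13, 0.96 for Gm11538, 1.86 for Gm53, 1.69 for Mir196a-1 and 1.28 for Hoxb9, all past the threshold.

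The genes whose course over the 8 embryos was most like each of the 5 were found by the root mean square difference of log2 values, after each gene was centred on its own mean, over 22161 other genes. Gm53 and Mir196a-1 were each other's closest gene, at a difference of 0.11. For Gm53 the next were Cdkn1a, the gene of the CDK inhibitor p21, at 0.21 and Cbr2, a carbonyl reductase gene of club cells, at 0.22. For Mir196a-1 they were Dglucy, a gene of glutamate metabolism, at 0.21 and Eda2r, a receptor gene of the TNF family, at 0.22.

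For Hoxb9 the closest were Slc15a1, a peptide transporter gene, Dapl1 and Dglucy, at 0.15, 0.16 and 0.16. For Gm11538 they were Ccng1, the gene of cyclin G1, 9530057J20Rik and Slc15a1, at 0.13, 0.14 and 0.14. For Hoxb13 they were Rtl3, Porcn, which acylates WNT proteins, and Serpinb5, a serpin gene, at 0.04, 0.06 and 0.07. This measure favours genes with a change of the same size, and the smaller the change, the more genes lie close.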

How the data were processed

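The authors deposited a log2 value for every probe set, made with RMA in oligo per the submitters' processing notes. Genome build, options and versions were not given in the sources used here. This method equalises the distributions of the arrays (medians 7.05 to 7.12). Of 41345 probe sets, the platform annotation gives 1 gene symbol for 23521, several for 1814 and no entry for 16010, giving 22180 genes by the highest-mean probe set.

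Genotype was fitted with limma 3.58.1 in R 4.3.3, litter entering as a random block (correlation 0.153), empirical Bayes moderation and two-sided tests. P-values were adjusted by Benjamini-Hochberg over all genes, with a threshold of 0.05. In all, 189 genes passed, and 2189 had an unadjusted p under 0.05. The fit was tested on simulated data. RefSeq (GRCm38.p6) served for gene order and sequences. Figures used Python 3.11.15 and matplotlib 3.10.9.

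Members, lists and alternatives were chosen with earlier results of these data known. Named genes are the 5 members, list members that passed with up to 3 others in list order, the 3 nearest neighbours on each side, and the 3 likest genes per member. Outside this rule, Hoxd9, Hoxc13, Hoxd13, Isl1, Lhx1, Hoxd11, Umod, Nphs1, Sftpc, Epcam, Shh and Xist were also named. Same-numbered mutants and controls share no litter, and the numbers were not taken as pairs.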

Additional observations from a re-analysis of the deposited data

Results flagged for a closer look

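Among 78 groups of 4 values, from 39 named genes in 2 genotypes, 1 embryo stood far from the other 3 in 5 groups, where chance gives about 1 in 20, or 3.9. None of these was a gene of the Hoxb9 to Hoxb13 interval. Mutant 1 was highest among mutants for Serpinb5, at a log2 value of 5.56 against 5.35 to 5.37 in the others, and mutant 2 was lowest for Ccng1, at 11.75 against 11.94 to 11.97. Control 3 was lowest among controls for Meis2, at 10.37 against 10.48 to 10.50, and highest for Dapl1, at 7.43 against 7.10 to 7.13. Control 1 was highest for Cbr2, at 7.99 against 7.70 to 7.71.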

How the results depend on the processing

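The changes of Gm53, Mir196a-1, Hoxb9 and Gm11538 kept their direction and stayed past the threshold in every alternative in which they were tested, with adjusted p of at most 0.0312 by limma. Their log2 changes ran from 1.83 to 1.91, 1.64 to 1.74, 1.14 to 1.37 and 0.83 to 1.07 in the same order. Hoxb13 kept its direction and missed the threshold in 11 of 23 alternatives. Its log2 change was 0.39 on litter means and with all probe sets tested, 0.41 and 0.36 without control litter 1 and 2, and 0.38 and 0.39 without mutant litter 1 and 2. It was 0.35 to 0.42 without 1 embryo. With only genes above the median level, 2 of the 5 genes passed because the other 3 were not tested. Otherwise 4 or 5 passed.

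Over all genes 189 passed. The count was 285 without the litter block, 98 on litter means, 106 without control litter 1, 85 and 69 without mutant litter 1 and 2, 674 with Xist as a covariate and 135 to 169 without 1 embryo. Fits on fewer samples have fewer degrees of freedom, and for the other settings the cause was not tested. With the replicate number as a fixed replicate block, 195 genes and all 5 members passed, with log2 changes as reported. Deviations of same-numbered embryos correlated at −0.27 to 0.03, so the numbers do not pair them. The number of arrays limits the precision. Of the list genes called, Hoxb7, Hoxa10, Hoxc9, Anxa1, Pax2, Krt4, Pax9, Trp63 and Foxa1 passed in all 8 fits without 1 embryo, and Hoxb6, Hoxc10 and Meis2 did so in 4, 1 and 0 of them, with no change of direction in any of these genes. Leaving out a litter ended calls of 4 of these 9 by limma: Hoxb7 without mutant litter 1 (adjusted p 0.06), Hoxa10 and Anxa1 without mutant litter 2 (0.0538 and 0.0872), and Hoxc9 without control litter 2 or mutant litter 1 (0.0658 and 0.0767).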
